A study of Mus musculus with 22 samples.

Results

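The genes described here are 38 genes of the interferon response and of antigen presentation by MHC class I, followed in mouse back skin at 3 ages and in 2 genotypes. They were chosen by name, and each was read from the probe sets that the platform annotation pairs with that gene alone. Of the 38 genes, 35 had such a probe set, of 8251 genes that could be named on the array. A total of 19 had a mean signal over all 22 arrays at or above the median of all probe sets and were tested, among 4900 tested genes and 6211 tested probe sets. Another 16 were measured only by dimmer probe sets and are given by their levels. The remaining 3 (Stat2, Irf2 and Bst2) had no probe set of their own and have no value here.

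All mice were CB6F1, a hybrid strain that carries the b and d haplotypes of the MHC, and total RNA was taken from whole back skin. Wild-type skin was compared with K14-DN-Clim skin (DN-CLIM below), in which the keratin 14 promoter directs a dominant-negative form of CLIM, a cofactor of LIM-domain transcription factors, to the basal keratinocytes of the epidermis and hair follicle. Each genotype had 5 arrays at postnatal day 6 (P6), 3 at P14 and 3 at P23. P6 and P14 fall within the first formation and growth of the follicles, and P23 falls in their first resting phase. Whether an array stands for 1 mouse is not stated in the labels, so the p-values below measure the spread between arrays. No other allele or agent is named for either genotype.

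Interferons are secreted signals that bind paired receptors (Ifnar1 with Ifnar2 for type I, Ifngr1 with Ifngr2 for interferon gamma) and act through Janus kinases, STAT proteins and interferon regulatory factors on many target genes. The targets include antiviral effectors, guanosine triphosphatases (GTPases) that attack intracellular pathogens, and the machinery of antigen presentation. In that machinery the immunoproteasome cuts cytosolic proteins, the TAP transporter moves the peptides into the endoplasmic reticulum, tapasin helps load them, and the class I heavy chain leaves for the cell surface with beta-2 microglobulin. In skin, both keratinocytes and resident immune cells can carry this programme, and low class I presentation is a described feature of the growing hair follicle.

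Promoter sequence was read for these genes because the programme is defined by shared regulatory elements. RefSeq promoter windows (build GRCm38.p6, from 250 bases before to 50 after each transcription start) were matched for 35 of the 38 genes, with none matched for Usp18, Mx1 and Tap2. Letter patterns were searched on both strands, where N is any base: GAAA followed by NN and again by GAAA for the core of the interferon-stimulated response element, TTCNNNGAA for the gamma-activated sequence, and the palindrome-like kappa B site of the class I enhancer A, whose letters are the capitals in H2-K1 below. The first was found in 14 of the 35 genes, against 3.99% of the 27025 genes with a window, the second in 13 of 35 against 9.55%, and the third in 2 of 35 against 0.126%. The windows shown lie upstream of the start on the gene's own strand, and the capitals mark the interferon-stimulated response element core or, in H2-K1 and H2-D1, the kappa B site. They were chosen as class I genes, GTPases and the ubiquitin-like effector Isg15 whose values are given below. The first is B2m, with the element on the plus strand 139 bases before the start:
B2m, chr2:122147527-122147686, plus strand: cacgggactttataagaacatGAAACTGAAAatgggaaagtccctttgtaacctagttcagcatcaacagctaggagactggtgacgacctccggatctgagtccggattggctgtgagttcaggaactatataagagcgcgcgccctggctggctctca
The class I heavy-chain genes H2-K1 and H2-D1 both hold the kappa B site, and 94 of the first 100 bases of the windows shown are identical between them:
H2-K1, chr17:34000348-34000477, minus strand: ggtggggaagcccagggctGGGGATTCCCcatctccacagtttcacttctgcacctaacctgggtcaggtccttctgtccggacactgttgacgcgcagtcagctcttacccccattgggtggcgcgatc
H2-D1, chr17:35262904-35263093, plus strand: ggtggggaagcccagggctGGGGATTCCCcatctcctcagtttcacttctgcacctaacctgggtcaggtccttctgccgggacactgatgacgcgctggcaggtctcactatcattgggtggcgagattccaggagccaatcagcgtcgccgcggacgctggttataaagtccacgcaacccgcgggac
All 4 GTPase genes hold the interferon-stimulated response element core, on the opposite strand in Gbp2 and Gbp3 (printed there as its reverse complement) and on the gene's strand in Igtp and Irgm1, and in Gbp3 and Irgm1 a pair of matches overlap:
Gbp2, chr3:142620583-142620662, plus strand: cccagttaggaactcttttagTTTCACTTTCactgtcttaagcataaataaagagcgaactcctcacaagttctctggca
Gbp3, chr3:142559964-142560043, plus strand: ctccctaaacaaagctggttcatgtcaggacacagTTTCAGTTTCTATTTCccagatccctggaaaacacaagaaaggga
Igtp, chr11:58199476-58199555, plus strand: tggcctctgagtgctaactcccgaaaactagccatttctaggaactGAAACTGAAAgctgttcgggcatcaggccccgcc
Irgm1, chr11:48871421-48871500, minus strand: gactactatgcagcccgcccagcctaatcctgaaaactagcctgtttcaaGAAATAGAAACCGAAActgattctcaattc
Isg15 holds 3 overlapping matches:
Isg15, chr4:156200819-156200898, minus strand: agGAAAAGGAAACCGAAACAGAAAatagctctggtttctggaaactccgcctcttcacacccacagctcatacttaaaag
A match describes letters in a window and not a bound site, and an element that departs from the pattern's letters is not counted. By role, the response element core lay in 4 of 4 GTPase genes, 6 of 9 matched antiviral effectors (Ifit1, Ifit3, Isg15, Ifitm3, Bst2 and Eif2ak2), the feedback inhibitor Socs1, the transcription factors Stat2 and Irf2, and B2m. These letters were not in the windows of the receptor, immunoproteasome and matched peptide-loading genes. Psmb9, Tap1, Psmb8 and Tap2 are direct neighbours on chromosome 17, which carries 8 of the 38 genes, with Tapbp, H2-K1, H2-D1 and Eif2ak2 as the others.

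Values are log2 of the deposited signal. Each array had been brought to the same 2% trimmed mean (500.25 to 500.34), and array medians lay between 7.563 and 7.805. The mean correlation of an array with the others of its group was 0.9328 to 0.972, lowest for DN-CLIM P6 replicate 5. On the P6 and P14 arrays, 6.306 to 9.946% of all signal came from the 20 brightest probe sets, and on the P23 arrays 4.304 to 5.037%. The skin also changed in makeup over these ages: the tested hair shaft keratin genes, 6 of the 8 listed, had a median change of -7.55 from P14 to P23 in wild type and -7.39 in DN-CLIM. The median change over all tested probe sets lay between -0.03 and 0 in every comparison of ages. Levels are not compared between genes, since each probe set has its own brightness. In whole skin, fewer cells of a type and less RNA per cell cannot be told apart.

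**Figure D1:**
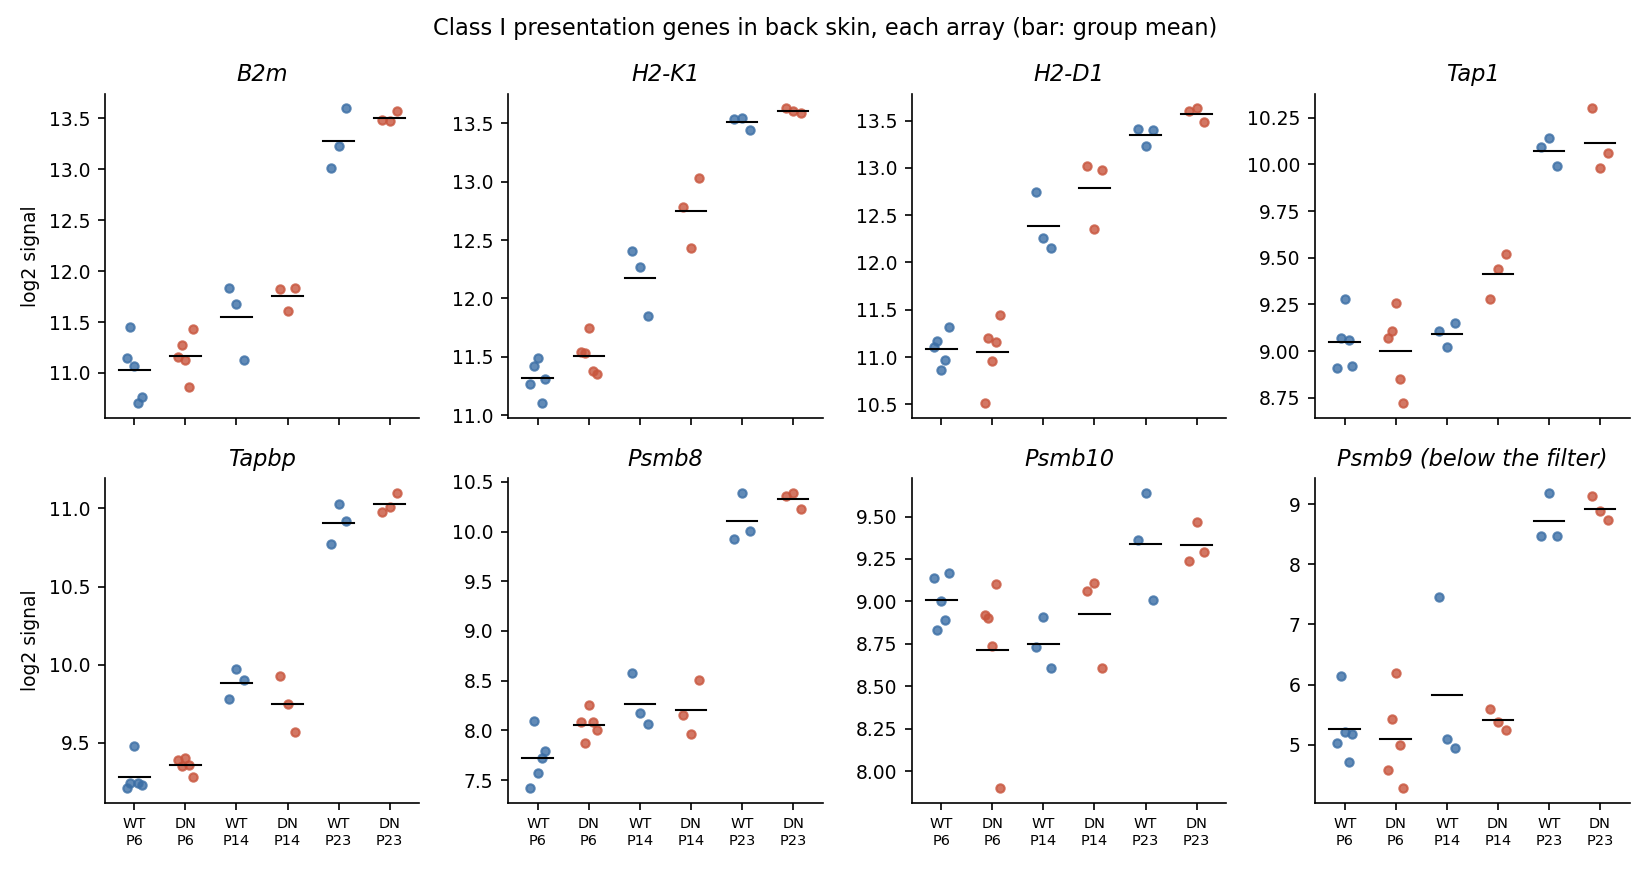
Log2 signal of the 7 tested class I presentation genes and of Psmb9, below the filter (vertical axis, its range set per gene) by group (horizontal axis), wild type (WT) and DN-CLIM (DN) at P6, P14 and P23, with 1 point per array and a bar at the group mean. In B2m, H2-K1 and H2-D1 every P23 array lies above every P14 and P6 array of either genotype.

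The RNA signals of the surface complex genes B2m, H2-K1 and H2-D1 rose at every step in both genotypes. For B2m the P6 to P14 calls depended on the arrays used. B2m encodes beta-2 microglobulin, the invariant light chain of every class I molecule. At P6 it measured 11.15, 11.45, 11.07, 10.70 and 10.76 in wild-type skin and 11.16, 11.27, 11.13, 10.86 and 11.43 in DN-CLIM skin. By P14 the wild-type arrays read 11.83, 11.68 and 11.13, and the DN-CLIM arrays 11.82, 11.61 and 11.83. By P23 they read 13.01, 13.23 and 13.60, and 13.48, 13.47 and 13.57. The P23 arrays of both genotypes stand clear of all younger arrays, while 1 wild-type P14 array lies within the P6 range. Such gaps between ages are common on these arrays: of all tested probe sets, 66% in wild type and 66.3% in DN-CLIM had P14 and P23 arrays that did not overlap, 52.6% and 51.1% had P6 and P23 arrays that did not, and 27.6% and 25.9% had P6 and P14 arrays that did not. From P6 to P23, B2m rose by 2.25 in wild type (4.77-fold, adjusted p = 2.6e-10 by limma with Benjamini-Hochberg adjustment over all tested probe sets) and by 2.34 in DN-CLIM (5.06-fold, adjusted p = 1.4e-10). Most of this came between P14 and P23, with 1.73 (SE 0.19) in wild type and 1.76 in DN-CLIM. The P6 to P14 change was 0.52 in wild type (adjusted p = 0.032) and 0.58 in DN-CLIM (adjusted p = 0.014). The wild-type call at that step was lost in 9 of the 16 alternatives run, with the highest adjusted p, 0.2, without wild-type P14 replicate 1, and the change was 0.32 with P6 arrays 1 to 3 only and 0.82 with arrays 4 and 5 only. The DN-CLIM call was lost without DN-CLIM P14 replicate 1 or 3 (adjusted p = 0.052 and 0.056).

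H2-K1 encodes the K heavy chain, which holds the peptide shown to CD8 T cells. Wild-type arrays measured 11.27, 11.42, 11.49, 11.10 and 11.31 at P6, then 12.41, 12.27 and 11.85 at P14, then 13.54, 13.55 and 13.44 at P23. DN-CLIM arrays measured 11.54, 11.53, 11.75, 11.38 and 11.35 at P6, then 12.78, 12.43 and 13.03 at P14, then 13.63, 13.61 and 13.59 at P23. The 3 ages do not overlap in either genotype. H2-K1 rose by 0.86 (SE 0.13, adjusted p = 4.6e-05) and then 1.33 (adjusted p = 9.8e-08) in wild type, and by 1.24 (adjusted p = 3.5e-07) and then 0.86 (adjusted p = 3.3e-05) in DN-CLIM. After quantile normalization the second DN-CLIM step was 1.53, above the first at 1.23, so the order of the steps in DN-CLIM depends on the scaling. The totals over both steps were 2.19 (4.57-fold) and 2.10 (4.29-fold).

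H2-D1 encodes the D heavy chain. At P6 it measured 11.11, 11.17, 10.86, 10.97 and 11.32 in wild type and 10.51, 11.20, 10.96, 11.16 and 11.45 in DN-CLIM. P14 arrays read 12.75, 12.26 and 12.15 in wild type and 13.02, 12.35 and 12.98 in DN-CLIM, and P23 arrays 13.41, 13.23 and 13.40, and 13.60, 13.63 and 13.48. As for H2-K1, no 2 ages overlap within a genotype. H2-D1 rose by 1.30 (2.47-fold, adjusted p = 1.3e-05) and then 0.96 (adjusted p = 0.00032) in wild type, and by 1.73 (3.31-fold, adjusted p = 2.7e-07) and then 0.78 (adjusted p = 0.0021) in DN-CLIM. After quantile normalization the second steps were 1.55 and 1.45. The H2-D1 and H2-K1 probe sets can share sequence with other class I heavy-chain genes, so the split of signal between these genes is uncertain. Each heavy chain has 3 probe sets, and all were called higher from P6 to P23, at 2.11 to 3.41 for H2-D1 and 2.19 to 2.80 for H2-K1 in wild type. Of all tested probe sets, 25.7% were called higher there. The H2-K1 probe set with the 2.80 had group means of 6.71 to 7.65 at P6 and P14, under the filter of 7.67. It passed the filter through its P23 arrays and is no separate support for the rise. From P6 to P14 in wild type, 2 of the 3 probe sets of each heavy chain were called, against 9.43% of all tested called higher. The size of that step differed between the H2-D1 probe sets, from 0.30 to 1.99. Over P14 to P23, 9 of 9 tested macrophage markers in wild type and 8 of 9 in DN-CLIM were also called higher, against 27% and 27.1% of all tested probe sets. The part of these markers in the class I rise was not tested.

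The tested peptide-loading genes rose too, Tapbp at both steps and Tap1 at the second in both genotypes. Tapbp encodes tapasin, which bridges the class I heavy chain to the TAP transporter. Wild-type arrays read 9.21, 9.24, 9.48, 9.24 and 9.23 at P6, then 9.78, 9.97 and 9.90 at P14, then 10.77, 11.03 and 10.92 at P23. DN-CLIM arrays read 9.39, 9.35, 9.40, 9.36 and 9.28 at P6, then 9.93, 9.75 and 9.57 at P14, then 10.98, 11.01 and 11.10 at P23. The ages are separate in both genotypes. Tapbp rose by 0.60 (SE 0.10, adjusted p = 8.5e-05) and then 1.03 (adjusted p = 4.6e-08) in wild type, and by 0.40 (adjusted p = 0.0041) and then 1.28 (adjusted p = 1.6e-09) in DN-CLIM. Its 3 probe sets were all called from P6 to P23, but of the 3 only 2 in wild type and 1 in DN-CLIM were called between P14 and P23.

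Tap1, a subunit of the peptide transporter, stayed between 9.02 and 9.15 at P14 in wild type, within its P6 range of 8.91 to 9.28, and reached 9.99 to 10.14 at P23. In DN-CLIM it ran from 8.72 to 9.26 at P6, 9.28 to 9.52 at P14 and 9.98 to 10.30 at P23. The P23 arrays are separate from both younger ages in each genotype. Between P14 and P23 Tap1 rose by 0.98 in wild type (1.97-fold, adjusted p = 2.9e-06) and by 0.70 in DN-CLIM (1.63-fold, adjusted p = 0.00016). Its P6 to P14 change was 0.05 in wild type and 0.41 in DN-CLIM (adjusted p = 0.015). The DN-CLIM call was lost without DN-CLIM P14 replicate 2 or 3 (adjusted p = 0.057 and 0.073), and the change was 0.27 (adjusted p = 0.087) with P6 arrays 1 to 3 only and 0.63 with arrays 4 and 5 only. Tap2, the other subunit, was below the filter and ran from group means of 6.30 ± 0.92 (SD, n = 5) at P6 to 8.25 ± 0.22 (n = 3) at P23 in wild type, and from 5.65 ± 1.37 (n = 5) to 8.40 ± 0.09 (n = 3) in DN-CLIM.

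The immunoproteasome subunits replace the constitutive catalytic subunits and shift the peptides cut toward those that class I binds. Psmb8 measured 7.42, 8.09, 7.57, 7.72 and 7.79 in wild type and 8.08, 7.87, 8.26, 8.08 and 8.0 in DN-CLIM at P6. At P14 it measured 8.58, 8.17 and 8.06, and 8.15, 7.96 and 8.51. At P23 it measured 9.93, 10.39 and 10.01, and 10.36, 10.39 and 10.23. P6 and P14 overlap in both genotypes, and P23 lies well above. Between P14 and P23 Psmb8 rose by 1.84 in wild type (3.59-fold, adjusted p = 2.3e-08) and by 2.12 in DN-CLIM (4.35-fold, adjusted p = 2.8e-09). Its P6 to P14 change was 0.55 in wild type (adjusted p = 0.019, lost in 3 of the 16 alternatives run, with an adjusted p of 0.15 without wild-type P14 replicate 1). The DN-CLIM change over that step was 0.15.

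Psmb9 was below the filter and read 5.03, 6.15, 5.21, 4.71 and 5.18 in wild type and 4.58, 5.42, 6.20, 4.99 and 4.28 in DN-CLIM at P6. At P14 it read 7.45, 5.10 and 4.94, and 5.59, 5.37 and 5.25, and at P23 8.48, 9.19 and 8.47, and 9.13, 8.89 and 8.73. Each P23 array is above every younger one, and 1 wild-type P14 array stands above its neighbours. Psmb10, the remaining subunit, had smaller estimates. Its group means were 9.0 ± 0.15 (SD, n = 5), 8.75 ± 0.15 (n = 3) and 9.33 ± 0.32 (n = 3) in wild type at the 3 ages, and 8.71 ± 0.47, 8.93 ± 0.27 and 9.33 ± 0.12 in DN-CLIM. Psmb10 was called from P14 to P23 in wild type (0.59, adjusted p = 0.033, lost in 5 of the 12 alternatives run, with an adjusted p of 0.15 without wild-type P23 replicate 2). It was also called from P6 to P23 in DN-CLIM (0.62, adjusted p = 0.013, but 0.058 without DN-CLIM P23 replicate 2 and 0.051 with the compared groups only).

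None of the 3 constitutive counterparts was called higher. Of all tested probe sets, 27% in wild type and 27.1% in DN-CLIM were called higher from P14 to P23. A count of 0 among 3 genes is therefore no test of these genes as a set. Psmb6, which Psmb9 replaces, measured 11.32 ± 0.12 (SD, n = 3) at P14 and 10.68 ± 0.09 (n = 3) at P23 in wild type, and 11.31 ± 0.03 and 10.31 ± 0.37 in DN-CLIM. It fell by 0.64 in wild type and by 1.0 in DN-CLIM between these ages, where 27.1% and 27.2% of all tested probe sets were called lower. Psmb5, replaced by Psmb8, was called in no comparison, with group means of 10.49 to 10.78. Psmb7, replaced by Psmb10, was called in none either, with group means of 10.53 to 10.77.

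Both chains of the receptor for interferon gamma rose between P14 and P23. Ifngr1, the ligand-binding chain, read 7.93, 7.01, 6.69, 7.30 and 8.22 in wild type and 7.13, 7.86, 7.53, 7.52 and 7.26 in DN-CLIM at P6. At P14 it read 7.31, 7.48 and 7.64, and 7.58, 7.33 and 6.32, and at P23 9.49, 9.17 and 9.98, and 9.15, 9.09 and 9.30. P6 and P14 overlap, and all P23 arrays are higher. Between P14 and P23 Ifngr1 rose by 2.07 in wild type (SE 0.34, 4.2-fold, adjusted p = 2.3e-05) and by 2.10 in DN-CLIM (4.3-fold, adjusted p = 2e-05). Ifngr2, the signalling chain, rose by 1.0 in wild type (adjusted p = 0.0019) and by 0.75 in DN-CLIM (adjusted p = 0.016, but 0.097 without DN-CLIM P23 replicate 3 and 0.096 without DN-CLIM P14 replicate 3) over the same interval. Its wild-type group means were 7.83 ± 0.19 (SD, n = 5) at P6, 7.33 ± 0.46 (n = 3) at P14 and 8.34 ± 0.07 (n = 3) at P23. From P6 to P23 Ifngr2 was called in DN-CLIM only. That call was lost in 2 of the 16 alternatives run, with an adjusted p of 0.16 with P6 arrays 4 and 5 only. The type I receptor chains Ifnar1 and Ifnar2 were below the filter, with group means of 5.74 to 8.27 and 6.01 to 7.92, highest in DN-CLIM at P23.

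Among the signalling genes, Irf9, the DNA-binding part of the complex that type I interferon activates, had the smallest adjusted p from P6 to P23 (1.8e-08 in wild type and 1e-08 in DN-CLIM). Wild-type arrays measured 7.89, 7.97, 8.20, 7.91 and 7.80 at P6, then 8.66, 8.45 and 8.22 at P14, then 9.46, 9.66 and 9.56 at P23. DN-CLIM arrays measured 8.02, 7.83, 7.86, 7.69 and 8.23 at P6, then 8.25, 8.42 and 7.71 at P14, then 9.64, 9.47 and 9.65 at P23. The P23 arrays are separate in both genotypes, and P6 and P14 overlap in DN-CLIM only. Irf9 rose between P14 and P23 by 1.11 in wild type (2.17-fold, adjusted p = 1.6e-05) and by 1.46 in DN-CLIM (2.75-fold, adjusted p = 4.6e-07). Its P6 to P14 change was 0.49 in wild type (adjusted p = 0.031, lost in 9 of the 16 alternatives run, with an adjusted p of 0.17 without wild-type P14 replicate 1). The DN-CLIM change over that step was 0.20.

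Irf1, a factor induced by interferon gamma that acts on class I genes, was at 7.52 ± 0.68 (SD, n = 5), 8.20 ± 0.28 (n = 3) and 8.72 ± 0.26 (n = 3) in wild type and at 7.75 ± 0.37, 8.34 ± 0.28 and 8.93 ± 0.22 in DN-CLIM. It rose from P6 to P23 by 1.20 in wild type (adjusted p = 0.0013) and by 1.18 in DN-CLIM (adjusted p = 0.0015), while neither single step was called. The wild-type change was 0.72 with P6 arrays 1 to 3 only and 1.92 with arrays 4 and 5 only, and passed the test in both. Irf5, a factor acting downstream of Toll-like receptors in myeloid cells, rose over the same span by 0.46 in wild type (adjusted p = 0.02) and by 0.88 in DN-CLIM (adjusted p = 7.8e-05). The wild-type Irf5 call was lost in 4 of the 16 alternatives run, with an adjusted p of 0.1 with P6 arrays 4 and 5 only. Stat3, which many cytokines activate, rose by 0.32 in each genotype (adjusted p = 0.045 in both). The wild-type Stat3 call was lost in 11 of the 16 alternatives run and the DN-CLIM call in 9 of 16. Without DN-CLIM P6 replicate 5, the lowest DN-CLIM array for Stat3, the DN-CLIM change was 0.18, and with P6 arrays 4 and 5 only it was 0.53.

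Irf7, the amplifier of type I interferon production, was read from a probe set of the kind that can share sequence with related genes. It was called from P6 to P14 in DN-CLIM (0.68, SE 0.22, adjusted p = 0.029), with overlapping groups. That call was lost in 6 of the 16 alternatives run, and with P6 arrays 4 and 5 only the change was 0.39 (adjusted p = 0.29). The wild-type change in Irf7 over that step was 0.05, and the difference between the genotypes' changes was 0.63 (adjusted p = 0.75). Another Irf7 probe set, below the filter, did not show the DN-CLIM rise. Its DN-CLIM group means were 7.68 ± 0.51 (SD, n = 5) at P6 and 7.61 ± 0.50 (n = 3) at P14. In wild type they were 7.53 ± 0.36 and 6.49 ± 0.79. Irf3, a constitutive sensor-linked factor, was called nowhere, with changes between -0.25 and -0.01. Irf8, a factor of myeloid cells, was below the filter and measured 6.19 ± 0.79 (SD, n = 5), 6.23 ± 0.90 (n = 3) and 8.15 ± 0.39 (n = 3) in wild type, and 6.69 ± 0.48, 6.78 ± 0.56 and 8.50 ± 0.26 in DN-CLIM.

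The antiviral effectors were mixed. Ifitm3, a membrane protein that blocks virus entry, read 11.59, 11.44, 11.54, 11.43 and 11.34 in wild type and 11.56, 11.40, 11.49, 11.30 and 9.74 in DN-CLIM at P6. At P14 it read 11.42, 11.17 and 11.03, and 11.14, 11.10 and 11.08, and at P23 12.52, 12.55 and 12.59, and 12.63, 12.54 and 12.54. The P23 arrays are tightly grouped above all others, and DN-CLIM P6 replicate 5 is far below its group. Between P14 and P23 Ifitm3 rose by 1.34 in wild type (2.54-fold, adjusted p = 0.00038) and by 1.46 in DN-CLIM (2.75-fold, adjusted p = 0.00017). Ifi35, a cytosolic interferon-induced protein, rose by 1.71 (adjusted p = 0.0046) in wild type and 1.26 (adjusted p = 0.03) in DN-CLIM over that interval. Its wild-type P14 arrays spread widely (7.27 ± 1.13, SD, n = 3), and without replicate 1 of them the wild-type change was 1.06 (adjusted p = 0.053). The DN-CLIM call for Ifi35 was lost in 5 of the 6 fits that left out 1 array. From P6 to P23 Ifi35 was called in both genotypes, but the DN-CLIM call was lost in 12 of the 16 alternatives run, with changes of 0.80 to 1.35.

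Isg15, a ubiquitin-like protein joined to other proteins, measured 7.14, 7.92, 7.28, 8.0 and 8.19 in wild type and 7.83, 7.21, 7.31, 8.07 and 6.72 in DN-CLIM at P6, with 7.50, 7.60 and 7.61, and 7.43, 7.28 and 7.38, at P14. At P23 it measured 7.72, 8.19 and 8.16 in wild type and 8.48, 8.41 and 7.91 in DN-CLIM. The P6 and P23 ranges overlap in both genotypes. In DN-CLIM Isg15 was called from P14 to P23 (0.90, adjusted p = 0.015) and from P6 to P23 (0.84, adjusted p = 0.012), and both calls were lost without DN-CLIM P23 replicate 1 (adjusted p = 0.061 and 0.062) or replicate 2 (0.052 and 0.051). In wild type its changes were 0.45 and 0.32 and did not pass. Adar, the editor of double-stranded RNA, went the other way and fell by 0.52 from P6 to P23 in wild type (adjusted p = 0.035, lost in 10 of the 16 alternatives run), while its DN-CLIM change was -0.27. The wild-type Adar change was -0.31 (adjusted p = 0.16) with P6 arrays 1 to 3 only and -0.83 with arrays 4 and 5 only.

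The other effectors were below the filter. Ifit1, Ifit2 and Ifit3, which bind viral RNA or its translation machinery, had group means of 2.91 to 4.88, 2.37 to 4.34 and 3.65 to 6.34. Mx1, a dynamin-like GTPase, had group means of 3.40 to 5.21. Eif2ak2, the kinase PKR, had group means of 6.58 to 6.97, a narrow range. Of the feedback inhibitors, Usp18, which removes ISG15 and restrains type I signalling, had group means of 3.68 to 6.44. Socs1, an inhibitor of Janus kinases, lay nearest to the filter of 7.67 from below, 0.34 under it, and had group means of 6.23 to 8.11, highest in DN-CLIM at P6. Isg15 lay nearest from above, by 0.03.

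The interferon-inducible GTPases were also below the filter, yet all were highest at P23. Gbp2, a guanylate-binding protein, read 6.65, 6.31, 4.44, 3.64 and 4.76 in wild type and 7.09, 6.42, 4.40, 4.79 and 6.55 in DN-CLIM at P6. At P14 it read 6.53, 6.03 and 4.60, and 4.91, 4.67 and 4.67, and at P23 8.28, 8.58 and 8.22, and 8.89, 8.44 and 8.27. The younger arrays scatter widely and all lie below the P23 arrays. Irgm1, an immunity-related GTPase, read 4.87, 3.40, 3.47, 1.87 and 4.57 in wild type and 3.57, 4.79, 5.71, 3.77 and 5.62 in DN-CLIM at P6. At P14 it read 3.66, 2.78 and 3.58, and 3.72, 5.29 and 3.39, and at P23 7.03, 7.26 and 7.25, and 6.67, 6.74 and 6.64. Here too the P23 arrays are above all younger ones. Gbp3 went from 6.67 ± 0.25 (SD, n = 3) at P14 to 8.53 ± 0.03 (n = 3) at P23 in wild type and from 5.68 ± 1.73 to 8.75 ± 0.40 in DN-CLIM. Igtp went from 5.44 ± 1.15 to 7.28 ± 0.16 and from 6.25 ± 0.28 to 8.12 ± 0.46.

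A fit without the filter put values on these 16 dimmer genes. From P14 to P23, 9 were called higher in wild type and 10 in DN-CLIM, against 11.4% and 10.7% of all probe sets below the filter. All 4 GTPases and Psmb9 were among them in both genotypes, with changes of 3.84 and 2.55 for Irgm1, 2.64 and 3.79 for Gbp2, 1.86 and 3.08 for Gbp3, 1.84 and 1.87 for Igtp, and 2.89 and 3.52 for Psmb9, in wild type and DN-CLIM in turn. From P6 to P23, 10 and 11 of the 16 were called higher, against 11.8% and 12.8%, and from P6 to P14 0 and 1, against 1.59% and 4.75%. With an offset of 12.9 signal units added, chosen after seeing the data, the wild-type change of Irgm1 became 2.77. That setting called 9 and 10 higher from P14 to P23, and leaving out 1 array at a time, added likewise, called 7 to 8 and 8 to 10. Socs1 was called lower from P6 to P14 in DN-CLIM (-1.88), and Mx1 and Eif2ak2 were called in no comparison of ages.

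**Figure D2:**
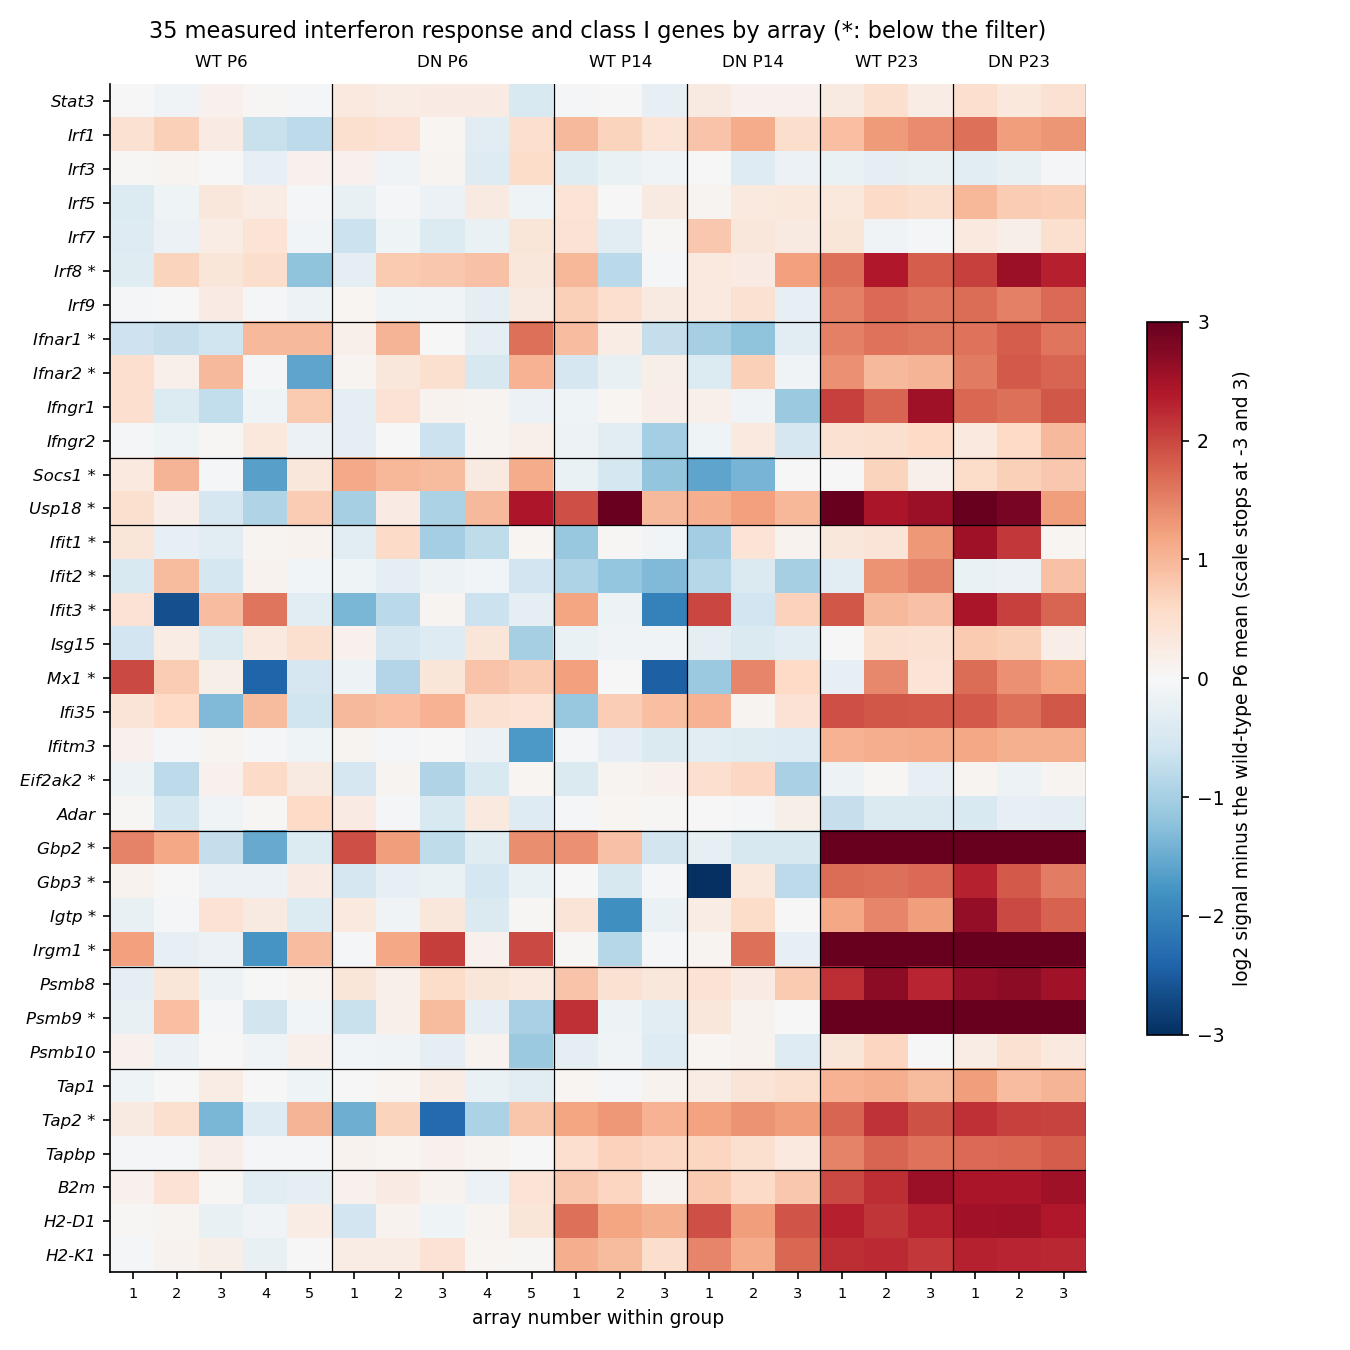
Log2 signal of the 35 measured genes (rows, by role) in the 22 arrays (columns, by group), each gene shown as the difference from its own wild-type (WT) P6 mean, DN being DN-CLIM. The colour scale stops at differences of -3 and 3, an asterisk marks genes below the filter, and the P23 columns of both genotypes are darkest red for Gbp2, Irgm1 and Psmb9, while Irf3 and Adar are pale.

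Counted over the 19 tested genes, 6 were called higher from P6 to P14 in wild type, against 9.43% of all tested probe sets, and 6 in DN-CLIM, against 12.1%. From P14 to P23, 13 were called higher in wild type, against 27%, and 13 in DN-CLIM, against 27.1%. From P6 to P23, 13 were called higher and 1 lower in wild type, against 25.7% higher and 28.3% lower, and 16 were called higher in DN-CLIM, against 26.7%. In the other age comparisons 0 were called lower, against 11.3% and 27.1% of all tested probe sets in wild type and 14.7%, 27.2% and 28.2% in DN-CLIM. The filter uses the mean over all arrays, so a gene bright only at P23 can pass through that age, and these counts describe the genes that passed and are no test of the whole set. Without the filter, over all 35 measured genes, 22 were called higher from P14 to P23 in wild type, against 18.5%, and 23 in DN-CLIM, against 18.1%. The P6 to P14 wild-type count fell from 6 to 3 without wild-type P14 replicate 1. Over all 6211 tested probe sets, the number called higher at that step fell from 586 to 387 in the same fit.

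The class I presentation genes are given apart from the rest, by step. Of the 9 class I presentation genes, 7 were tested, and 5 of these were called higher from P6 to P14 in each genotype, against 9.43% and 12.1% of all tested probe sets, with median changes of 0.55 in wild type and 0.41 in DN-CLIM. Of the other 29 genes, 12 were tested, and 1 was called higher at that step in each genotype, with median changes of 0.02 and 0.04. From P14 to P23, 7 and 6 of the class I presentation genes were called higher, with medians of 1.03 and 0.86, and 6 and 7 of the others, with medians of 0.49 and 0.67, against 27% and 27.1% of all tested probe sets. Over P6 to P23 the class I medians were 2.19 in wild type and 2.10 in DN-CLIM, and those of the others 0.48 and 0.86. The difference between these groups of genes was not tested.

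The mean level of the 7 tested class I presentation genes ran from 9.67 to 9.90 in wild-type and 9.73 to 9.93 in DN-CLIM arrays at P6. At P14 it ran from 10.12 to 10.46 and from 10.38 to 10.58, and at P23 from 11.44 to 11.60 and from 11.62 to 11.66.

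**Figure D3:**
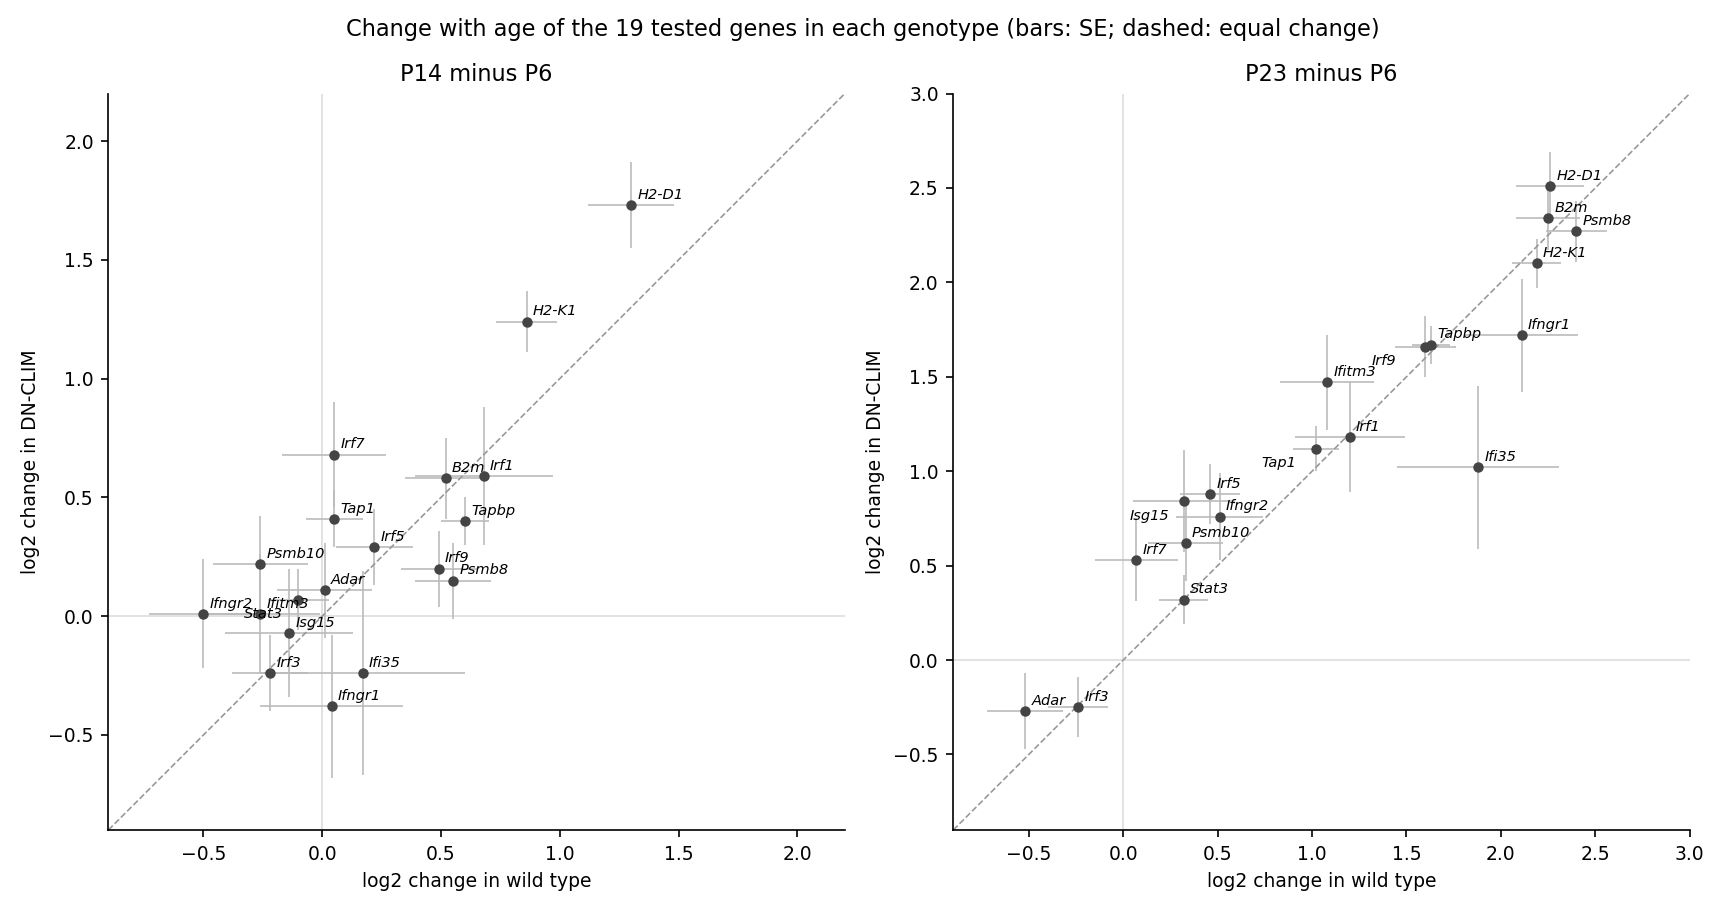
Log2 change of the 19 tested genes in wild type (horizontal axis) against DN-CLIM (vertical axis), from P6 to P14 (left) and from P6 to P23 (right), with bars for the SE and a dashed line for equal change. Most points lie near the line at P23, with B2m, H2-D1, H2-K1 and Psmb8 at the upper right and Adar at the lower left. The largest difference between the genotypes' changes in that panel is 0.86, for Ifi35.

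The wild-type and DN-CLIM changes with age rest on different arrays and can be set side by side. Between P14 and P23, 18 of the 19 genes had the same sign in both genotypes (88.6% of all tested probe sets did), and 11 were called higher in both, against 22.7%. From P6 to P23 all 19 had the same sign and 13 were called higher in both, against 22%, and from P6 to P14 13 had the same sign (77.2% of all) and 4 were called higher in both, against 6.26%. The correlation of the changes across these 19 genes, which are not independent, was 0.77, 0.93 and 0.94 for P14 minus P6, P23 minus P14 and P23 minus P6, beside 0.79, 0.96 and 0.96 over all tested probe sets. None of the 19 passed the test of a difference between genotypes in the change with age, where 0.0161%, 0% and 0.0161% of all tested probe sets passed for P14 minus P6, P23 minus P14 and P23 minus P6. At an unadjusted p under 0.05, 1, 1 and 0 of the 19 passed these tests by limma, against 6.7%, 5.1% and 4.88% of all tested probe sets. The first was Tap1, whose change from P6 to P14 was 0.37 larger in DN-CLIM (adjusted p = 0.73), and the second H2-K1, whose change from P14 to P23 was -0.47 in DN-CLIM relative to wild type (adjusted p = 0.91).

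The genotype comparison asks whether the K14-driven transgene moves these genes at a given age. None of the 19 was called at P6, P14 or P23, nor averaged over the 3 ages, where 0.0322%, 0.0644%, 0.161% and 0.177% of all tested probe sets were called by limma. At an unadjusted p under 0.05, 1, 2, 0 and 2 of the 19 passed, against 8.18%, 6.26%, 4.57% and 7.02% of all tested probe sets. The median DN-CLIM minus wild-type difference over the 19 genes was -0.03 at P6, 0.14 at P14, 0.12 at P23 and 0.11 averaged. For the 16 dimmer genes, the fit without the filter called none either, against 0.0403%, 0.105%, 0.0966% and 0.129% of all probe sets, and 1, 0, 0 and 1 passed unadjusted.

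H2-K1 had the smallest unadjusted p among these differences. At P14 its DN-CLIM arrays (12.78, 12.43 and 13.03) all lay above the wild-type arrays (12.41, 12.27 and 11.85), by a narrow gap of 12.43 over 12.41. The difference was 0.57 (SE 0.15, 95% confidence interval 0.27 to 0.87, 1.48-fold), with an adjusted p of 0.18, and 15.2% of all tested probe sets had groups that did not overlap at that age. Leaving out 1 array at a time gave 0.40 (without wild-type P14 replicate 3) to 0.73, and of the 3 H2-K1 probe sets 2 were higher in DN-CLIM at P14, with differences from -0.03 to 0.57. Averaged over the ages the H2-K1 difference was 0.29 (SE 0.08, adjusted p = 0.25).

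Tap1 at P14 was 0.32 higher in DN-CLIM (95% confidence interval 0.04 to 0.60, adjusted p = 0.72), again with groups that did not overlap. Psmb8 differed most clearly at P6, by 0.34 (95% confidence interval 0.05 to 0.64, adjusted p = 0.56), with overlapping groups. For H2-D1 at P14 the difference was 0.40 (95% confidence interval -0.02 to 0.81, adjusted p = 0.8), and 0.28 to 0.61 with 1 array left out. All 3 H2-D1 probe sets were higher in DN-CLIM at P14, by 0.11 to 0.60. At P6 only 1 of the 3 was higher, with differences from -0.12 to 0.40. Its P6 groups did not overlap (10.67 to 10.98 in wild type, 11.03 to 11.56 in DN-CLIM), as in 0.95% of all tested probe sets. Ifi35 had the widest interval of those named, with 0.76 at P6 (-0.01 to 1.53), which was 0.43 without wild-type P6 replicate 3 and 0.26 with P6 arrays 4 and 5 only. None of these differences passed the test, and the intervals do not show that the genotypes are alike.

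**Figure D4:**
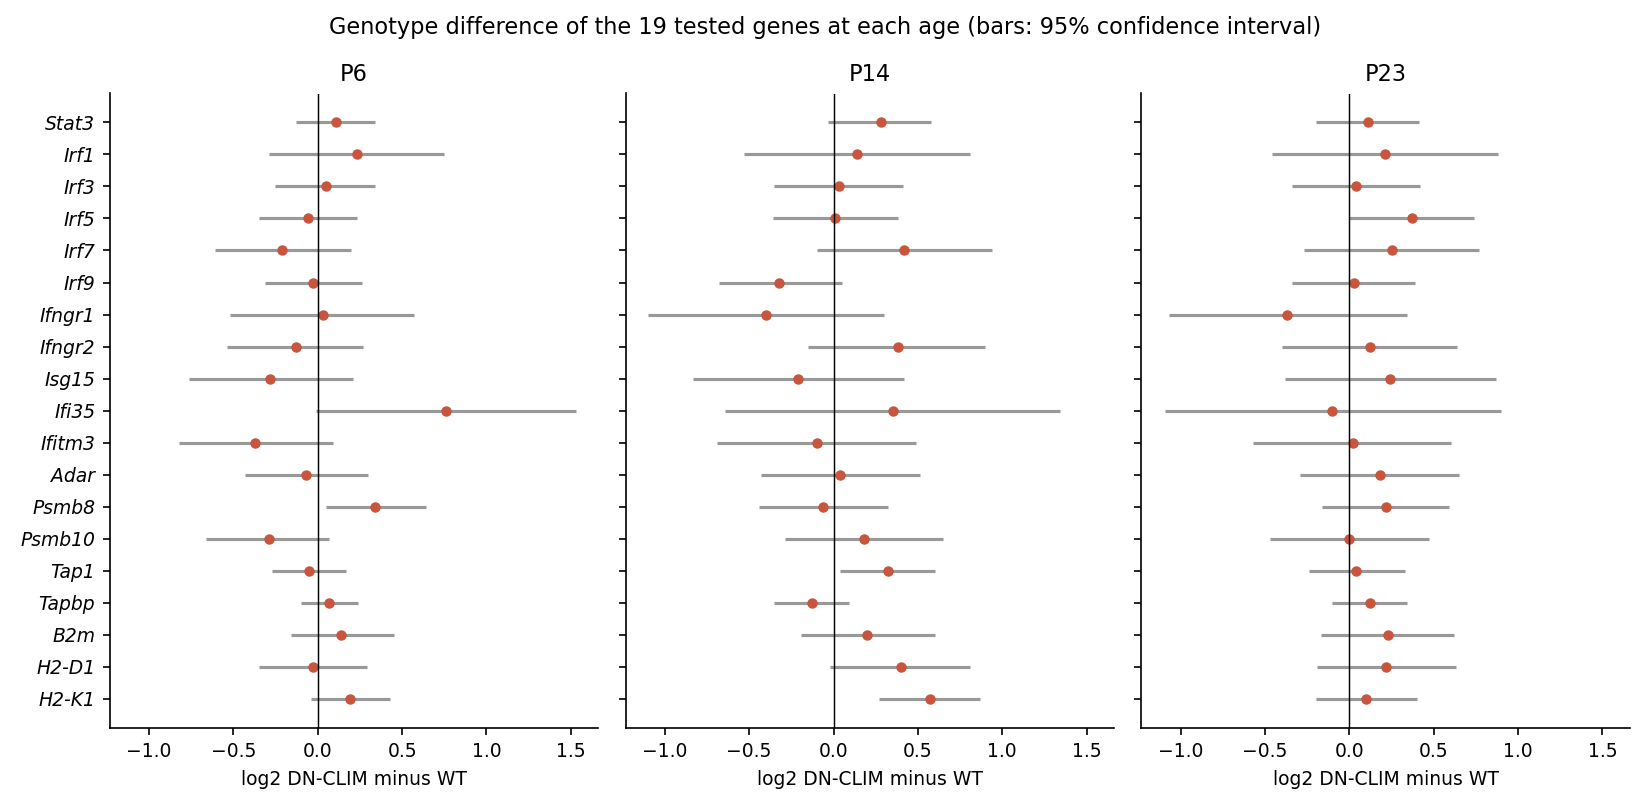
DN-CLIM (DN) minus wild-type difference in log2 signal of the 19 tested genes at P6, P14 and P23, with 95% confidence intervals as bars. The intervals of H2-K1 (0.27 to 0.87) and Tap1 (0.04 to 0.60) at P14 and of Psmb8 (0.05 to 0.64) at P6 lie above 0, and none passed the adjusted test.

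Other genes of the pathways gave a wider view. Of 57 further interferon pathway genes listed, 38 were measured and 13 tested. From P14 to P23, 10 were called higher in wild type and 9 in DN-CLIM and 0 lower, with medians of 0.82 and 0.94, against 27% and 27.1% of all tested probe sets called higher. From P6 to P23, 12 and 11 were called higher and 0 lower, against 25.7% and 26.7% higher. From P6 to P14, 1 was called higher and 3 lower in wild type, against 9.43% and 11.3%, and 0 and 3 in DN-CLIM, against 12.1% and 14.7%. Jak1, the kinase shared by both interferon receptors, went from 9.35 ± 0.07 (SD, n = 3) at P14 to 10.49 ± 0.19 at P23 in wild type and from 9.40 ± 0.08 to 10.74 ± 0.08 in DN-CLIM, rises of 1.14 and 1.33. Ly6e, an interferon-induced surface protein, fell by 0.55 from P6 to P14 in wild type and by 0.53 in DN-CLIM, then rose by 1.27 and 1.21. Lgals3bp, a secreted glycoprotein induced by interferon, rose by 1.67 and 1.89 from P14 to P23, and Ifi27 rose by 1.61 and 1.26.

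Of 22 further class I pathway genes, 13 were measured and 7 tested. From P6 to P23, 3 were called higher in wild type and 4 in DN-CLIM and 0 lower, against 25.7% and 26.7% of all tested probe sets higher. From P14 to P23, 2 were called higher in each genotype, against 27% and 27.1%, with 1 lower in DN-CLIM, against 27.2%. From P6 to P14, 1 was called higher and 1 lower in each genotype, Hspa5 (0.52) and Cd1d1 (-0.73, adjusted p = 0.07 with P6 arrays 4 and 5 only) in wild type and Canx (0.83) and Psme1 (-0.52) in DN-CLIM. Cd1d1, a class I-like molecule that presents lipids, rose by 1.84 in wild type and 1.88 in DN-CLIM from P14 to P23. Of the chaperones that fold class I chains, Canx rose from P6 to P23 by 0.48 in wild type and 1.03 in DN-CLIM, and the oxidoreductase Pdia3 gave 0.70 and 0.99. The wild-type Canx call was lost in 3 of the 8 fits that left out 1 array (adjusted p up to 0.089) and with P6 arrays 4 and 5 only (0.32, adjusted p = 0.16), and that subset gave 0.57 for Pdia3 in DN-CLIM.

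Markers of immune cells moved over the same interval. Of the 12 listed pan-leukocyte genes, 7 were tested and 5 (Ptprc, Cd53, Cd48, Cd37 and Fcer1g) were below the filter. From P14 to P23, 5 of the 7 were called higher in each genotype, with medians of 1.20 and 0.60. Of all tested probe sets, 27% in wild type and 27.1% in DN-CLIM were called higher over that interval. The mean level of the 7 ran from 8.69 to 9.08 in wild-type and 8.85 to 8.99 in DN-CLIM arrays at P14. At P23 it ran from 9.63 to 10.05 and from 9.79 to 9.96. Of the 13 macrophage genes, 9 were tested and 9 were called higher in wild type and 8 in DN-CLIM, with medians of 2.01 and 1.73. Their level ran from 8.49 to 8.88 and 8.67 to 9.01 at P14 and from 10.38 to 10.50 and 10.29 to 10.39 at P23. Adgre1, Aif1, Fcgr3 and Msr1 made up the rest of that list and were below the filter.

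The marker lists were not alike at the earlier step. From P6 to P14 the macrophage list had 0 genes called higher and 4 lower in wild type, and 0 and 1 in DN-CLIM, with medians of -0.29 and -0.21. Of all tested probe sets, 9.43% were called higher and 11.3% lower in wild type at that step, and 12.1% and 14.7% in DN-CLIM. In the list for MHC class II presenting cells, of 8 tested genes, 4 in wild type and 5 in DN-CLIM were called higher from P6 to P14. From P14 to P23 this list had 5 and 7 called higher, against 27% and 27.1% of all tested probe sets. Its mean level ran from 8.58 to 9.0 and 8.34 to 8.84 at P6, 9.36 to 9.72 and 9.08 to 9.36 at P14, and 10.44 to 10.54 and 10.32 to 10.57 at P23. Class II genes can themselves be induced by interferon gamma. Of the T and NK cell genes only Thy1, of 13 listed, was bright enough to test.

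The basal keratinocyte, fibroblast and skeletal muscle lists were also higher at P23 than at P14, while the hair shaft list fell. The 4 tested basal keratinocyte genes, of 7 listed (Krt5, Krt14 and Krt15, which define these cells, were below the filter), had 3 genes called higher in each genotype and median changes of 1.05 and 1.11. The 6 tested fibroblast genes, of 7, had 5 called higher in each and medians of 1.02 and 0.97. Of all tested probe sets, 27% in wild type and 27.1% in DN-CLIM were called higher between these ages. The 7 skeletal muscle genes had a median change of 1.16 in both genotypes. The part of each of these cell types in the changes of the interferon and class I genes was not tested. In the genotype comparison, no gene of the leukocyte, macrophage or class II lists was called at any age. Of all tested probe sets, 0.0322%, 0.0644% and 0.161% were called at P6, P14 and P23. With so few calls, a count of 0 does not show that these lists are alike in the genotypes.

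**Figure D5:**
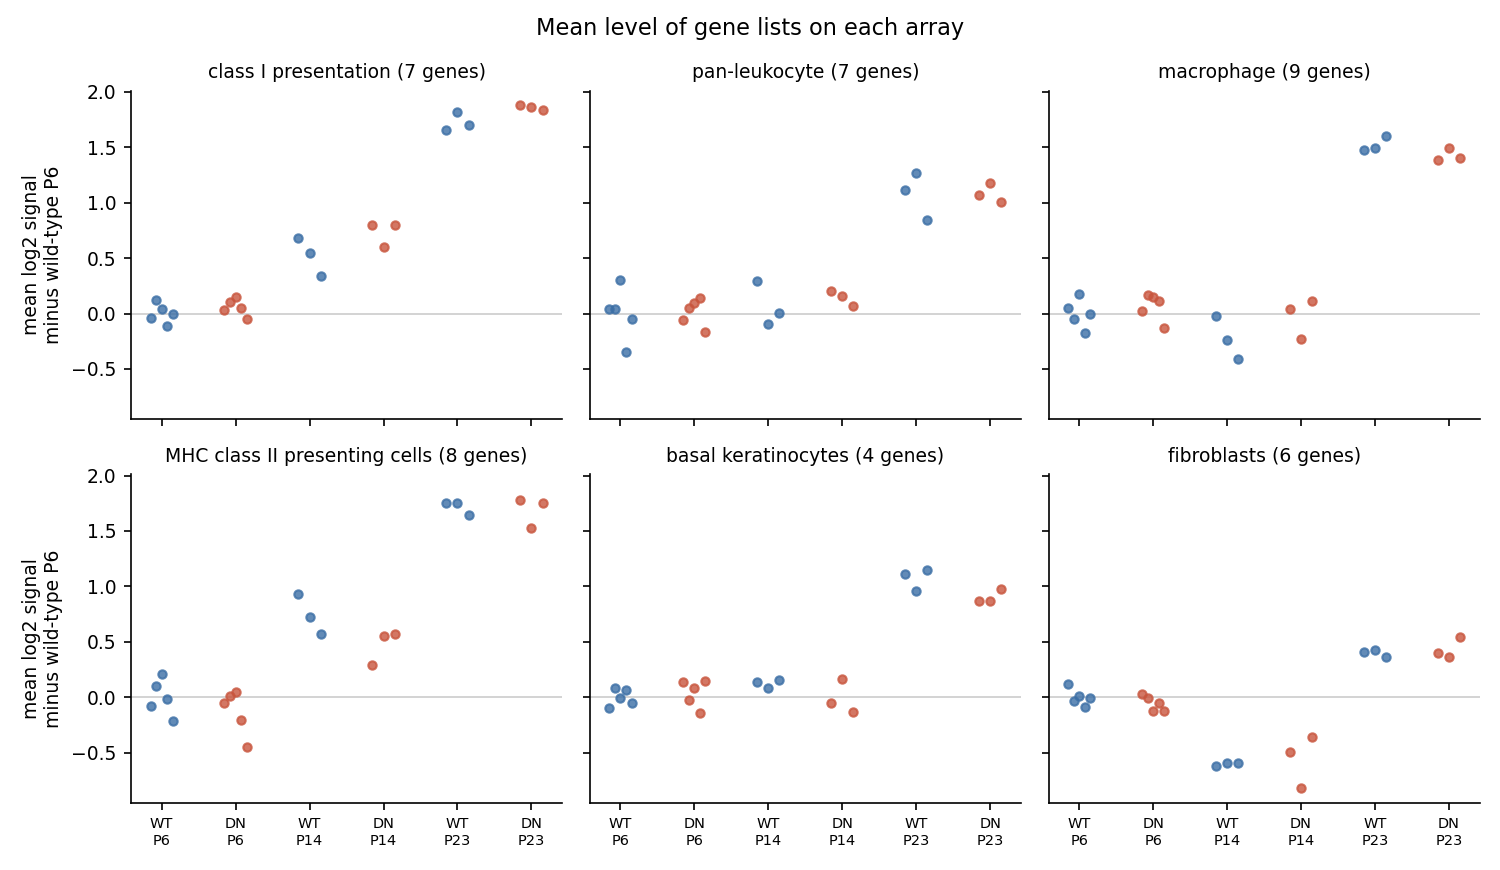
Mean log2 signal of the tested genes of the class I presentation list and of 5 marker lists, minus the wild-type (WT) P6 mean (vertical axis), by group (horizontal axis; DN is DN-CLIM), 1 point per array. At P14 the class I and class II lists lie above their P6 arrays and the fibroblast list lies below, and at P23 every list lies above its P14 arrays in both genotypes.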

How the data were processed

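Whole back skin RNA of 22 mouse samples was hybridised to 1-colour arrays, 1 per sample. The deposited values are linear intensities per probe set, computed with MAS5 per the submitters' processing notes (no version is given in the sources used here); MAS5 combines the probes of a set and scales each array to a common trimmed mean, and signals near background are noisy on a log scale. Of 12488 probe sets, 66 array controls were left out; 10833 of the remaining 12422 had 1 gene symbol, 396 several and 1193 none, and 10817 symbols were looked up again by Entrez identifier without a change.

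Signals were taken to log2 with no further normalization, since array medians differed by less than 0.3. Probe sets with a mean at or above the median of 7.67 (a signal of 203) were tested, 6211 in all. One model with a mean for each of the 6 groups was fitted over all 22 arrays with limma 3.58.1 (R 4.3.3; moderated two-sided tests with a variance trend), and p-values were adjusted by Benjamini-Hochberg over all tested probe sets, with a threshold of 0.05. The procedure was tested on simulated data. A gene is represented by its tested probe set of highest mean signal. All 38 genes are accounted for; of the other pathway lists up to 5 genes per comparison with the smallest p among those past the threshold are named. The members and lists were chosen with earlier results of these data known.

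Alternatives were quantile normalization, no filter, an added offset of 12.9 signal units, no variance trend, the compared groups only, subsets of the P6 arrays, a replicate block, and leaving out each array. Array numbers are shared between genotypes; the correlation of same-numbered arrays' deviations from their group means was 0 to 0.19 at P6, -0.05 to 0.03 at P14 and 0.06 to 0.25 at P23, so the numbers were not used to pair arrays. No 2 arrays held identical values. Promoter windows come from RefSeq on GRCm38.p6; the array table names no build, and no genome or protein sequence was used here.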

Additional observations from a re-analysis of the deposited data

Results flagged for a closer look

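In groups of 5 arrays, the highest or lowest array was compared with the rest by Dixon's ratio. Of 38 gene and group values, 3 had an array beyond the 95% limit, where chance gives about 1 in 20. Ifitm3 in DN-CLIM P6 replicate 5 was 9.74, while the other 4 arrays of its group lay between 11.30 and 11.56. Stat3 in the same array was 9.96, against 10.63 to 10.71 in the others. Tapbp in wild-type P6 replicate 3 was 9.48, against 9.21 to 9.24. DN-CLIM P6 replicate 5 also had the lowest signal of its group for Psmb10 (7.90) and the lowest correlation with its group among all arrays (0.9328). Without it the Ifitm3 rise from P6 to P23 in DN-CLIM was 1.13 in place of 1.47 and still passed the test. No comparison between genotypes in the change with age passed the test among these genes.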

How the results depend on the processing

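Of 68 called gene values, 48 kept their direction and their call under every alternative run for them, and no direction reversed. Calls were lost in 64 of 492 fits that left out 1 array, in 8 of 68 when only the compared groups were fitted, in 6 of 68 without the filter, in 6 of 68 with the replicate block, in 3 of 68 after quantile normalization, in 3 of 68 without the variance trend and in 0 of 68 with the offset. Of the 42 that use P6 arrays, 6 were lost with arrays 1 to 3 only and 6 with arrays 4 and 5 only. Without the filter, where 35 genes are tested in place of 19, the counts called were 22 for both P23 minus P14 and P23 minus P6 in wild type, and 23 and 25 in DN-CLIM. Of all 12422 probe sets, 34.7% and 34.8% were called in wild type and 36.2% and 35.6% in DN-CLIM. Those called higher were 18.5% and 17.9%, and 18.1% and 19%. With the compared groups only, 3 genes were called for P14 minus P6 in wild type in place of 6. Of all tested probe sets, 21.5% were called there in place of 20.8%.

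Leaving out 1 array gave counts of 3 to 7, 11 to 13 and 11 to 14 in wild type for P14 minus P6, P23 minus P14 and P23 minus P6, and 4 to 7, 11 to 13 and 12 to 16 in DN-CLIM. Of all tested probe sets, these fits called 13.9 to 19.9%, 47.8 to 49.4% and 47.1 to 53.5% in wild type. In DN-CLIM they called 17.6 to 29%, 47.8 to 49.6% and 47.7 to 57.6%. All genotype differences and differences in change gave 0 to 0. With the array number as a replicate block, the counts were 4, 13 and 13 in wild type, 6, 13 and 15 in DN-CLIM, and 0 for every genotype comparison; an array correlated best with its own number in 2 of 5 pairs at P6, 1 of 3 at P14 and 3 of 3 at P23. The block and the dim genes' settings are checks of these arrays only; the cause of each lost call was not tested.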
